A study of Mus musculus with 6 samples.

Results

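The clonotypes described here were T cell receptor β (TCR-β) rearrangements of the spleen that were also found in a tumor of the same title number. A clonotype was defined by its TRBV, its TRBJ and the residues of complementarity-determining region 3 (CDR3), free of stop or frame marks. It was a shared clonotype when it had 2 or more reads in a spleen library and 2 or more in the treated or the distant tumor library of that number. This gave 619 shared clonotypes of the 17516 with 2 or more reads in spleen 1 and 804 of 24379 in spleen 2. Together they made 1423 of 41895 entries (3.40%) and 1370 distinct clonotypes, since 53 were shared clonotypes in both numbers, out of 187625 distinct clonotypes in the 6 libraries. They were set against the 16774 clonotypes of spleen 1 and the 23393 of spleen 2 that had 2 or more spleen reads and 0 reads in both tumors of that number, called tumor-absent. Another 123 and 182 had a single read in a tumor and belong to neither set.

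The animals were C57BL/6 mice, each given MO4 melanoma cells (a B16F10 derivative that expresses ovalbumin, OVA) subcutaneously in right and left hindlimb, 100000 cells per site on day 0. The treated tumor was the right one, beside which 1000000 IFN-α-iPSC-pMC were injected 5 times, daily from day 5 to day 7 and then on days 12 and 13. IFN-α-iPSC-pMC are proliferating myeloid cells grown from pluripotent stem cells and made to produce interferon-α. The distant tumor was the left one of a treated mouse, and the spleen was the third tissue, with RNA taken from tumors on day 14. Every library, spleen included, came from a series in which the described mice were treated, and no library of an untreated mouse is used here. The series names 2 mice and the titles number the libraries 1 and 2, so a number was taken to stand for a mouse. The treated tumor libraries held 83171 and 56057 productive reads, the distant tumor libraries 82142 and 42320, and the spleen libraries 96907 and 135599. No molecular identifiers are named, so a read is not a molecule, and a clone with fewer cells cannot be told apart from one with less receptor RNA per cell.

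The TCR-β chain is assembled in the thymus by joining a V, a D and a J segment, with bases trimmed and added at the joints. CDR3 spans these joints and makes much of the contact with the peptide held by an MHC molecule. T cells that descend from the same ancestor carry the same rearrangement, so one clonotype read in lymphoid organ and tumor can mark a clone that occupies both, while rearrangements that form easily can also arise independently in many cells and animals and are then called public.

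CDR3 sequences that carry the results are given here as deposited, from the conserved cysteine to the conserved phenylalanine. CDR3 of 15 or more residues, and some shorter ones, are named by their genes and length only. The opening set holds the most read shared clonotype of spleen 2 and the one with the highest tumor share in number 2.
TRBV15/TRBJ1-2, most read in spleen 2: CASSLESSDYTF
TRBV16/TRBJ2-7, highest tumor share in number 2: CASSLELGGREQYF
The next set belongs to the TRBV31/TRBJ1-4 pair and shows a frame that differs at a few positions.
TRBV31/TRBJ1-4, both numbers: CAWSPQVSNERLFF
TRBV31/TRBJ1-4, both numbers: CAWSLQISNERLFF
TRBV31/TRBJ1-4, both numbers: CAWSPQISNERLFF
The last set shares the residues AER behind a TRBV1 start but uses different TRBJ genes.
TRBV1/TRBJ2-7, both numbers: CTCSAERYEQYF
TRBV1/TRBJ2-1, shared in number 1 and read in both spleens: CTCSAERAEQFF
TRBV1/TRBJ1-1, number 2: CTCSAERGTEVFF
TRBV1/TRBJ1-5, number 2: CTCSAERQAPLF
All of these genes lie in the Trb locus on chromosome 6 (GRCm38, GENCODE M21), with TRBV1 at 40891229 to 40891885, TRBV14 at 41135145 to 41135616 and TRBJ1-4 at 41534811 to 41534861 on the plus strand. TRBV31 lies behind the J segments, at 41557691 to 41558452 on the minus strand, and is joined by inversion.

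Shared clonotypes leaned to the abundant end of the spleen repertoire. Their median was 4 spleen reads (quartiles 2 and 7) in both numbers, against a median of 2 (quartiles 2 and 3) for tumor-absent clonotypes. The median spleen rank of the shared clonotypes was 1280 in number 1 and 1705 in number 2, against 6289 and 8225 for tumor-absent clonotypes. Tied clonotypes took the best rank of their tie, so 6289 and 8225 are the rank of every clonotype with exactly 2 reads in spleens 1 and 2. Of the shared clonotypes 16.6% and 15.9% had 10 or more spleen reads, against 0.709% and 0.624% of the tumor-absent ones. Spleen reads were part of the selection and a clonotype with more reads is more easily found again, so these values carry no test. The single best-ranked clonotypes with 0 tumor reads were a TRBV5/TRBJ1-6 clonotype of 15 residues, rank 4 in spleen 1 with 103 reads, and a TRBV29/TRBJ2-2 clonotype of 15 residues, rank 12 in spleen 2 with 46 reads.

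The share of spleen clonotypes found in a tumor grew with spleen reads in both numbers. At 2 spleen reads, 1.66% of the clonotypes of spleen 1 and 1.58% of those of spleen 2 were found in a tumor of the same number. The same shares were 12.5% and 12.7% at 5 to 9 reads, 36.0% and 38.0% at 10 to 19 reads, and 72.7% (40 of 55) and 69.1% (47 of 68) at 20 or more. When each spleen was set against the tumors of the other number, the shares were lower in every class, from 0.837% and 0.854% at 2 reads to 18.2% and 16.2% at 20 or more. Among the 100 best-ranked spleen clonotypes, 61 and 59 were found in the tumors of their own number and 15 and 14 in those of the other number.

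**Figure D1:**
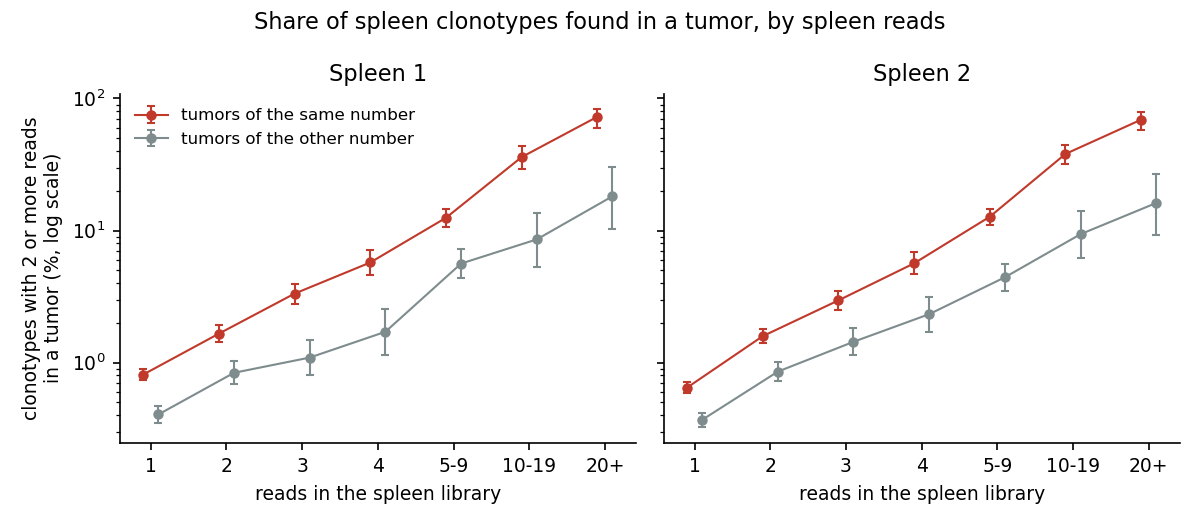
Share of spleen clonotypes with 2 or more reads in the treated or distant tumor (log axis, %) by the reads of the clonotype in its spleen library, for tumors of the same number (red) and of the other number (grey). Points are shares over clonotypes and bars Wilson 95% intervals for counting error. In both spleens the red points lie above the grey ones in every class and reach 72.7% and 69.1% at 20 or more reads.

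Over all spleen clonotypes with 2 or more reads, 3.53% (619) and 3.30% (804) were found in the tumors of the same number, against 1.38% (241) and 1.40% (341) in those of the other number. The 2 same-number shares averaged 3.42% ± 0.167 and the 2 other-number shares 1.39% ± 0.0162 (SD, n = 2 each). They did not overlap, and the exact permutation test, two-sided, gave p = 0.33, the smallest that 2 values against 2 allow. The same-number values are the counts that the selection itself made, so this is a description and no independent test. The test also did not pair the values of a spleen. At an equal depth of 42320 reads per library the expected shares were 5.72% and 7.49% of the spleen clonotypes of 2 or more reads for the same number, against 2.19% and 2.28% for the other number.

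Shared clonotypes held a large part of the tumors' reads and a small part of the spleens'. They carried 25.2% and 33.0% of the productive reads of treated tumors 1 and 2 and 29.4% and 36.1% of those of distant tumors 1 and 2, against 4.81% and 4.42% of the reads of spleens 1 and 2. The tumor-absent clonotypes carried 45.9% and 45.0% of the spleen reads. The highest tumor share of a shared clonotype was 4.37 times its spleen share at the median in number 1 (quartiles 1.75 and 11.1) and 6.41 times in number 2 (quartiles 3.20 and 13.9). For 16 and 21 of them the tumor share was 100 or more times the spleen share. The spleen share was the higher one for 84 of 619 (13.6%) and 31 of 804 (3.86%). A minimum of 2 reads is a larger share in the shallower tumor libraries than in the spleens, so a clonotype at the minimum on both sides already has a ratio above 1.

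Clonotypes with few spleen reads could dominate a tumor. Whether spleen reads as few as these were carried over from another library was not tested. A TRBV29/TRBJ2-1 clonotype of 15 residues had 0 reads in treated tumor 1, 4949 in distant tumor 1 (6.02% of its productive reads) and 2 in spleen 1. It was seen in no tumor of number 2 and had 2 reads in spleen 2. TRBV16/TRBJ2-7 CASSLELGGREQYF had 2172 reads in treated tumor 2 (3.87%), 2494 in distant tumor 2 (5.89%) and 5 in spleen 2. Treated tumor 1 gave 0 reads of it, distant tumor 1 gave 4461 (5.43%) and spleen 1 gave 6. It was thus high in 3 of 4 tumors and not detected in the remaining one. A TRBV15/TRBJ1-1 clonotype of 15 residues had 2550 reads in treated tumor 1, 92 in distant tumor 1 and 6 in spleen 1. A TRBV5/TRBJ2-3 clonotype of the same length had 1740 reads in treated tumor 2, 0 in distant tumor 2 and 2 in spleen 2. The TRBV15/TRBJ1-1 and TRBV5/TRBJ2-3 clonotypes were thus concentrated in a treated tumor and the TRBV29/TRBJ2-1 clonotype in a distant tumor. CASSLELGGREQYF was high in both tumors of number 2.

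Other shared clonotypes were prominent on both sides. A TRBV20/TRBJ1-2 clonotype of 13 residues had 585 reads in treated tumor 2, 661 in distant tumor 2 and 156 in spleen 2, its rank 3. A TRBV13-2/TRBJ2-1 clonotype of 14 residues had 758, 532 and 146 reads in the same order of libraries, and TRBV17/TRBJ2-3 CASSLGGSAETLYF had 95 in treated tumor 1, 1107 in distant tumor 1 and 124 in spleen 1. The most read clonotype of spleen 2, TRBV15/TRBJ1-2 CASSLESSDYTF, had 361 reads in treated tumor 2, 105 in distant tumor 2 and 411 in the spleen. At the other end, TRBV4/TRBJ2-4 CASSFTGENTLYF had 2 reads in treated tumor 1, 6 in distant tumor 1 and 92 in spleen 1, and TRBV13-2/TRBJ1-6 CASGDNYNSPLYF had 0 in treated tumor 2, 6 in distant tumor 2 and 65 in spleen 2. The last 2 were large in the spleen and near the detection limit in the tumors.

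Reads in spleen and tumor were only loosely ordered alike. Over the shared clonotypes with 2 or more reads in the treated tumor, Spearman's rho between tumor and spleen reads was 0.175 (306 clonotypes, number 1) and 0.295 (217, number 2). For the distant tumor it was 0.149 (453) and 0.311 (715), and between the treated and the distant tumor, over clonotypes with 2 or more reads in both, 0.260 (140) and 0.368 (128). These describe clonotypes that share their libraries and PCR and that were selected by a read minimum, and are not tests.

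**Figure D2:**
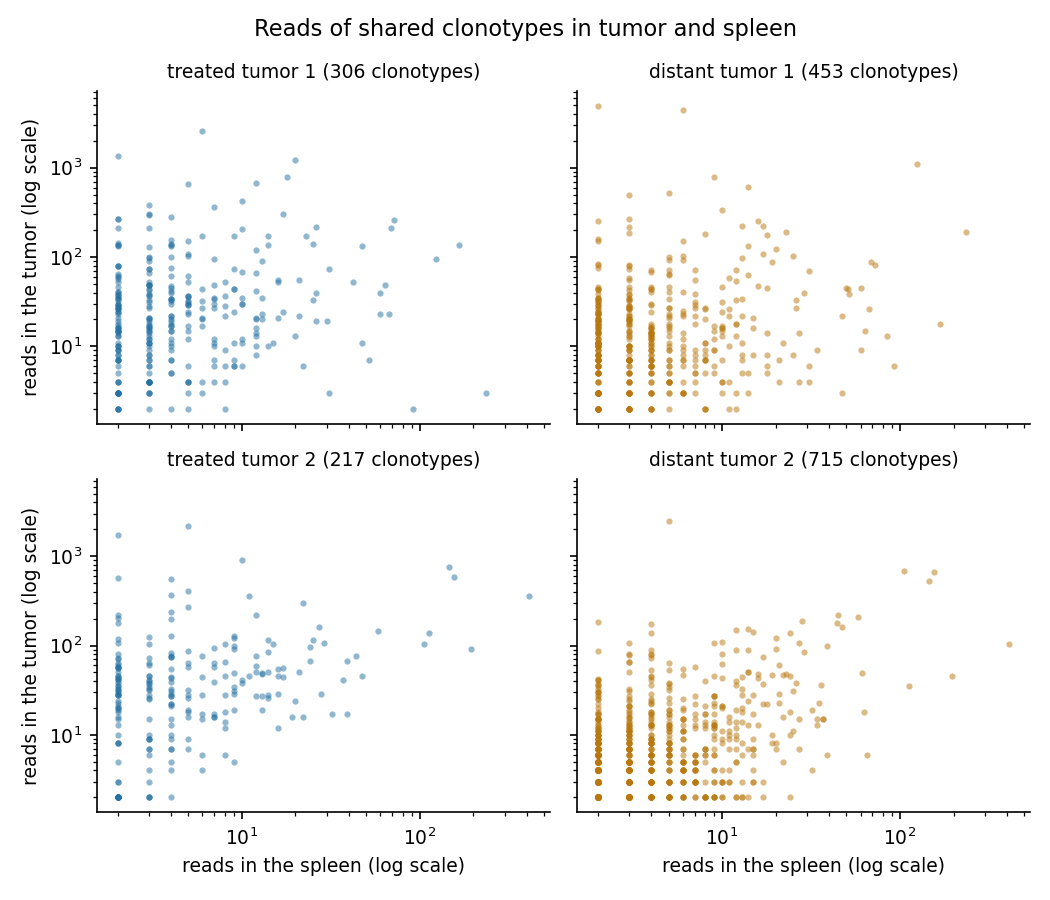
Reads in the tumor against reads in the spleen of the same number, both on log axes, for shared clonotypes with 2 or more reads in that tumor. Each point is a clonotype, the left panels show treated and the right panels distant tumors. Clonotypes of 2 spleen reads span the range of tumor reads up to 4949, and few points lie at high spleen and low tumor reads.

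More spleen clonotypes were found in the distant than in the treated tumor of each number. Treated tumor 1 held 306 of them and distant tumor 1 held 453, with 140 in both. Treated tumor 2 held 217 and distant tumor 2 held 715, with 128 in both. The treated tumors averaged 262 ± 62.9 and the distant tumors 584 ± 185 (SD, n = 2 each), which did not overlap (exact permutation test, two-sided, p = 0.33, the smallest possible). These counts use the read minimum of the selection, so the comparison is a description. The test did not pair the tumors of a number, which were set against the same spleen. At the equal depth of 42320 reads the expected numbers were 167 and 102 for treated tumors 1 and 2 and 231 and 307 for distant tumors 1 and 2, so distant tumor 2 was highest at the lowest depth.

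Within each number the same order held when the same clonotypes were counted as a share of the tumor's own. Between numbers these shares overlapped over all classes and at 10 to 99 tumor reads, where treated tumor 2 lay above distant tumor 1. Of the tumors' own clonotypes of 2 or more reads, 11.1% (306 of 2750) and 16.6% (217 of 1310) in treated tumors 1 and 2 had 2 or more spleen reads, against 15.9% (453 of 2857) and 24.7% (715 of 2892) in distant tumors 1 and 2. Among clonotypes of 2 to 9 tumor reads the shares were 5.38% and 5.64% for the treated tumors, against 11.0% and 19.97% for the distant tumors. Among those of 10 to 99 reads they were 15.2% and 26.8% for the treated tumors, against 22.3% and 42.0% for the distant ones, and at 100 or more reads 39.4% and 41.2%, against 50.9% and 57.9%. With the spleen of the other number the shares over all classes were 6.95% and 5.88% for treated tumors 1 and 2, against 7.18% and 6.88% for distant tumors 1 and 2. Within classes they were 3.82% and 3.03%, against 5.92% and 5.97%, at 2 to 9 tumor reads, which is the same order as with the own spleen. They were 9.28% and 9.01%, against 8.93% and 10.4%, at 10 to 99 reads, and 21.1% and 9.41%, against 15.1% and 10.5%, at 100 or more, where the tumors overlapped. How much blood or lymphoid tissue each tumor sample held was not measured, and its part in these shares was not tested.

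Many of the largest tumor clonotypes were not among the shared ones. Of the 10 most read clonotypes of each tumor, 4 had 2 or more reads in the spleen of that number. Of the 100 most read, 41 and 38 of treated tumors 1 and 2 and 47 and 62 of distant tumors 1 and 2 did so. The most read clonotype of distant tumor 1, TRBV12-1/TRBJ1-2 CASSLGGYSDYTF, had 190 reads in treated tumor 1, 15201 in distant tumor 1 (18.5% of its productive reads), 0 in spleen 1 and 1 in spleen 2. The 0 in spleen 1 allows a share of up to 0.00310%. A TRBV5/TRBJ1-6 clonotype of 16 residues had 1473 reads in treated tumor 2, 27 in distant tumor 2 and 0 in both spleens. Carry-over of reads between libraries was not tested. These clonotypes were chosen for 0 reads in the spleen of their number, so their zeros cannot show it.

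Next, measures that the selection did not use were compared. Shared clonotypes were found more often in the spleen of the other number, at 34.1% and 26.2% (1 or more reads), against 15.7% and 12.1% of tumor-absent clonotypes. The means over the 2 spleens were 30.2% ± 5.55 for shared and 13.9% ± 2.57 for tumor-absent clonotypes (SD, n = 2 each; exact permutation test, two-sided, p = 0.33, the smallest possible). In a tumor of the other number 12.8% and 12.4% of the shared clonotypes had a read, against 1.496% and 1.59% of the tumor-absent ones (means 12.6% ± 0.230 and 1.54% ± 0.0664, SD, n = 2 each, exact p = 0.33). The groups did not overlap in either measure.

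The gap in the other spleen depended on the spleen reads. Among clonotypes of exactly 2 spleen reads, 30.1% (56 of 186) and 22.7% (58 of 256) of the shared ones were in the other spleen, against 12.5% (1377 of 10990) and 9.01% (1426 of 15826) of the tumor-absent ones. Among those of 10 or more reads the shares were 35.9% (37 of 103) and 32.0% (41 of 128) for the shared clonotypes, against 36.1% (43 of 119) and 35.6% (52 of 146) for the tumor-absent ones. Wilson intervals of the groups lay apart at 2 and at 3 reads in both spleens, and overlapped at 4 reads and above. The shares of shared clonotypes with 2 spleen reads lay between those of tumor-absent clonotypes with 4 reads, 21.0% and 20.3%, and with 5 to 9 reads, 34.9% and 31.4%.

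**Figure D3:**
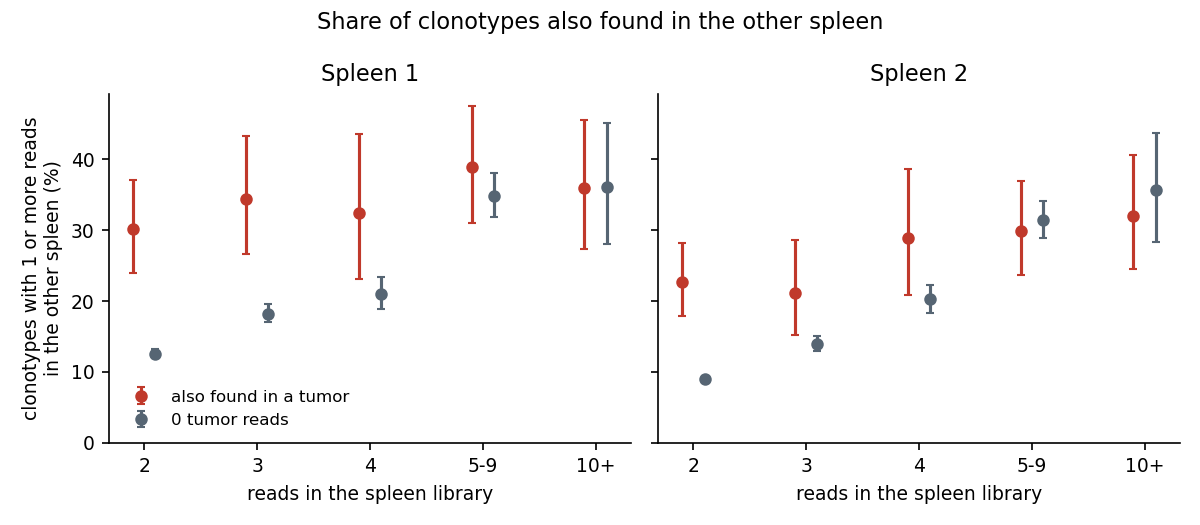
Share of clonotypes with 1 or more reads in the other spleen (%) by their reads in their own spleen, for clonotypes also found in a tumor (red) and with 0 tumor reads (grey). Bars are Wilson 95% intervals for counting error. Red points lie above grey ones at 2 to 4 reads and the bars overlap at 4 reads and above.

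The shared CDR3 were slightly shorter and closer to germline at a minimum of 2 reads, and at a minimum of 3 these differences were smaller. Mean length was 13.71 and 13.64 residues in shared clonotypes of spleens 1 and 2, against 13.82 and 13.80 in tumor-absent ones (means 13.68 ± 0.0456 and 13.81 ± 0.0172, SD, n = 2 each, exact permutation p = 0.33). Residues that neither germline V nor germline J end accounts for numbered 3.34 and 3.44 on average, against 3.68 and 3.66 (exact permutation p = 0.33, n = 2 each). Another spleen clonotype with the same V and J that differed by 1 residue existed for 52.3% and 54.6% of the shared clonotypes, against 36.3% and 42.4% of the tumor-absent ones (exact p = 0.33, n = 2 each). The same CDR3 occurred with another V or J gene in that spleen for 25.5% and 29.7%, against 18.5% and 24.2% (exact p = 0.33, n = 2 each). With a minimum of 3 reads in spleen and tumor, the difference in mean length between shared and tumor-absent clonotypes was -0.0167 residues (exact permutation p = 0.67), and that in residues outside germline was -0.102, against -0.134 and -0.281 at a minimum of 2. The gap in 1-residue neighbours was then 6.57 percentage points, against 14.1 at a minimum of 2. That in CDR3 held with another V or J gene was 1.89, against 6.32, with shares of 24.8% and 29.3% for the shared clonotypes and 20.5% and 29.8% for the tumor-absent ones (exact permutation p = 1.0), so its direction turned in spleen 2. Clonotypes of exactly 2 spleen reads had a difference of -0.245 residues in mean length and of -0.338 in residues outside germline. Their gap was 16.5 percentage points in 1-residue neighbours and 9.26 in CDR3 held with another V or J gene. Each of these was larger than over all clonotypes of 2 or more reads (exact permutation p = 0.33 for each).

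Clonotypes with a read in the other spleen were then left out on both sides, a step added after the data were seen. The difference in mean length was -0.0356 residues (exact permutation p = 1.0), with 13.93 and 13.76 residues in the shared clonotypes and 13.91 and 13.86 in the tumor-absent ones, so that its direction turned in spleen 1. The difference in residues outside germline was -0.122, that in 1-residue neighbours 7.86 percentage points and that in CDR3 held with another V or J gene 3.97 (exact permutation p = 0.67 for the last).

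No TRBV gene passed an adjusted p of 0.05 in the counts of distinct clonotypes (edgeR, 0 of 21 called, 0% in each direction), while the unadjusted p was under 0.05 for 2 genes and DESeq2 made 0 calls. TRBV20 was used by 4.36% (27) and 4.85% (39) of the shared clonotypes, against 2.24% (376) and 3.19% (746) of the tumor-absent ones, which is 0.76 ± 0.25 (SE) on the log2 scale with an edgeR adjusted p of 0.115. TRBV12-1 was used by 2.58% (16) and 3.61% (29) of the shared clonotypes, against 5.81% (974) and 5.75% (1346), which is -0.88 ± 0.24 (SE) on the log2 scale with an edgeR adjusted p of 0.0837. Both genes lay on the same side in each spleen, as did most of the 21, with 8 higher and 7 lower in both spleens. The groups did not overlap for 4 higher and 7 lower genes. Without the filter on low counts TRBV20 and TRBV12-1 passed, at an adjusted p of 0.0378 each (edgeR). They also passed among clonotypes private to a spleen, at 0.0287 for TRBV20 and 0.0431 for TRBV12-1 (edgeR). Among clonotypes found in the treated tumor, a split added after the data were seen, TRBV12-1 had a log2 fold change of -2.11 and an adjusted p of 0.00276 (edgeR). The most used gene, TRBV13-2, named here after its values were seen, was held by 17.0% and 16.8% of the shared clonotypes, against 14.6% and 12.0% of the tumor-absent ones (edgeR adjusted p = 0.526), and passed without the tumor-absent column of spleen 1, at 3.17e-05 (edgeR). TRBV26 and TRBV3 followed TRBV20 in size, and TRBV15 and TRBV1 followed TRBV12-1, all at an adjusted p of 0.369 (edgeR). TRBV12-1 and TRBV12-2 are close relatives, and reads could be split between them.

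**Figure D4:**
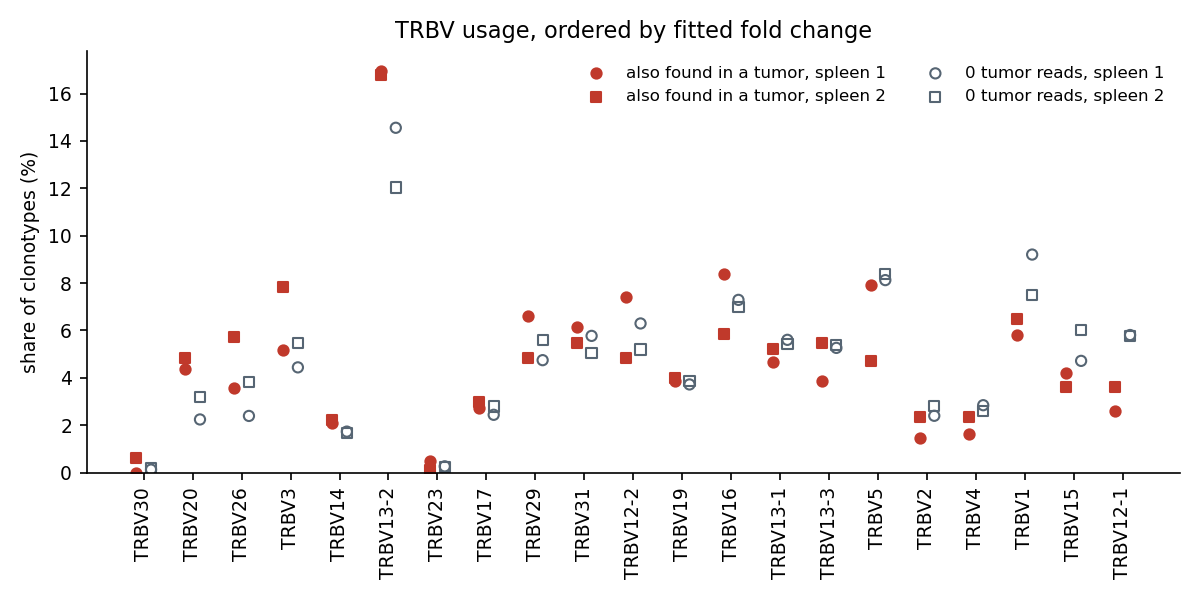
Share of distinct clonotypes (%) that use each TRBV gene, for clonotypes also found in a tumor (filled) and with 0 tumor reads (open), spleen 1 as circles and spleen 2 as squares. Genes run from the highest to the lowest fitted fold change. Of the 21 genes, 4 lay higher and 7 lower in clonotypes also found in a tumor without overlap, TRBV20 and TRBV12-1 among them. No gene passed the adjusted threshold.

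No TRBJ gene passed either (edgeR, 0 of 12, 0% in each direction), with 1 gene under 0.05 before adjustment and 1 called higher by DESeq2. That gene was TRBJ1-4, used by 8.89% (55) and 7.59% (61) of the shared clonotypes, against 6.12% (1027) and 5.80% (1356) of the tumor-absent ones. Its log2 fold change was 0.46 ± 0.18 (SE) with an adjusted p of 0.198 in edgeR and 0.0352 in DESeq2. TRBJ1-5 was the gene with the lowest value, used by 1.78% (11) and 1.37% (11) of the shared clonotypes, against 2.55% (428) and 2.29% (535), which did not pass (edgeR adjusted p = 0.653).

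Of 204 V-J pairs, 2 were called higher in shared clonotypes (0.98%) and 0 lower (0%). TRBV31/TRBJ1-4 made up 7 and 12 shared clonotypes (1.13% and 1.49%), against 59 and 83 tumor-absent ones (0.352% and 0.355%), which is 1.91 ± 0.46 (SE) on the log2 scale with an edgeR adjusted p of 0.00481. TRBV14/TRBJ1-6 made up 4 and 2 shared clonotypes (0.646% and 0.249%), against 6 and 6 (0.0358% and 0.0256%), which is 3.77 ± 0.64 (SE) on the log2 scale with an edgeR adjusted p of 0.00361. Both calls were lost with the number as a replicate block, at an adjusted p of 0.533 each (edgeR). TRBV31/TRBJ1-4 also did not pass without either spleen's shared column (edgeR adjusted p = 0.151 without shared clonotypes of spleen 1 and 0.718 without those of spleen 2), nor without either tumor-absent column (0.216 and 0.557, edgeR), although its log2 fold change stayed between 1.68 and 2.08. Among clonotypes of exactly 2 spleen reads it was 0.32 with an adjusted p of 0.971 (edgeR). TRBV1/TRBJ2-2 had 0 shared clonotypes in both spleens, against 73 and 103 tumor-absent ones (0.435% and 0.440%), and did not pass (edgeR adjusted p = 0.0985). A count of 0 allows up to 0.485% of the 619 and 0.373% of the 804 shared clonotypes, so that absence is at the limit of what these numbers can show.

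Neither CDR3 length classes nor residues of the CDR3 middle gave a call (edgeR, 0 of 10 and 0 of 20, 0% in each direction), with 2 of each kind at an unadjusted p under 0.05 and 0 called by DESeq2. Length 12 was held by 13.1% and 15.05% of the shared clonotypes, against 11.7% and 11.7% of the tumor-absent ones (edgeR adjusted p = 0.166). Length 16 was held by 6.14% and 5.85%, against 8.13% and 7.60% (edgeR adjusted p = 0.186). With the number as a block both length classes passed, at an adjusted p of 0.0499 each (edgeR), and so they did without the tumor-absent column of spleen 2, at 0.0340 and 0.0271 (edgeR). Threonine made up 5.42% and 4.77% of the middle residues of shared clonotypes, against 5.93% and 6.20%, a log2 difference of -0.26 ± 0.08 (SE) with an edgeR adjusted p of 0.0637. Without the tumor-absent column of spleen 1 it passed, at 0.00298 (edgeR).

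Of 843 words of 3 residues in the CDR3 middle, 3 were called higher in shared clonotypes (0.356%) and 0 lower (0%) by edgeR. The split was 3 higher and 2 lower with TMM scaling. With DESeq2 it was 1 higher and 296 lower, run without the low-count filter, so not over these 843 words, and with another scaling. AER was in 4 and 8 shared clonotypes (0.646% and 0.995%), against 15 and 19 tumor-absent ones (0.0894% and 0.0812%), which is 3.30 ± 0.61 (SE) on the log2 scale with an edgeR adjusted p of 7.81e-05. FHR was in 4 and 2, against 6 and 4, and SFH in 4 and 2, against 9 and 9 (edgeR adjusted p = 0.00322 and 0.0343). With the number as a block FHR passed (edgeR adjusted p = 0.0364), while AER and SFH had an adjusted p of 0.266 each (edgeR). Without the shared clonotypes of spleen 2 no word passed, and AER had an adjusted p of 0.786 (edgeR). No word passed without either tumor-absent column. All 4 and 8 shared clonotypes with AER belong to a TRBV1 family, and 5 of the 7 and 7 of the 12 of the pair TRBV31/TRBJ1-4 to another, both chosen for description after their values were seen. FHR and SFH were held in spleen 1 by 4 TRBV14/TRBJ1-6 clonotypes around a single sequence. These are the most read clonotype of spleen 1 and neighbours at 1 residue, which cannot be told apart from its reading errors, so the calls of both words carry that limit.

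The AER family consisted of TRBV1 clonotypes that begin with CTCSAER. In spleen 1, 4 of its 19 clonotypes of 2 or more reads were shared with a tumor, and in spleen 2, 8 of 27, with 3 and 5 different TRBJ genes. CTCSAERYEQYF, of whose 12 residues 2 are not given by germline ends, had 262 reads in treated tumor 1, 81 in distant tumor 1 and 72 in spleen 1. Treated tumor 2 gave 41 reads of it, distant tumor 2 gave 15 and spleen 2 gave 37. Of the other shared clonotypes of the family, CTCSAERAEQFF had 11 reads, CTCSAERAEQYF 2 and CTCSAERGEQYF 15 in the spleen of the number where they were not shared, with 0 in its tumors, and the rest were read in 1 number only. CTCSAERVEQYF had 103 reads in treated tumor 2, 1 in distant tumor 2 and 3 in spleen 2, and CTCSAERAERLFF had 62 in treated tumor 1, 15 in distant tumor 1 and 4 in spleen 1, with 0 reads of either in the other number. The family took 0.675% and 0.453% of the productive reads of treated tumors 1 and 2, 0.169% and 0.196% of those of distant tumors 1 and 2, and 0.196% and 0.125% of those of spleens 1 and 2. Its share was higher in both treated tumors than in the other 4 libraries.

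The TRBV31/TRBJ1-4 family read CAWS, any residue, Q, V or I, then SNERLFF. Of its clonotypes with 2 or more spleen reads, 5 of 6 in spleen 1 and 7 of 9 in spleen 2 were shared with a tumor. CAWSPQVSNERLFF had 135 reads in treated tumor 1, 18 in distant tumor 1 and 167 in spleen 1, its rank 2. Treated tumor 2 and distant tumor 2 gave 16 reads of it each, and spleen 2 gave 22. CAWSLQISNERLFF had 421 reads in treated tumor 1, 3 in distant tumor 1 and 10 in spleen 1, and in number 2 it had 16, 8 and 19 reads in the same tissues. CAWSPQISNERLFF had 68, 7 and 10 reads in number 1 and 28, 2 and 5 in number 2, again in treated tumor, distant tumor and spleen. All 3 were read in every library, and they differ only at the open positions on either side of Q. The family took 1.12% and 0.294% of the reads of treated tumors 1 and 2, 0.0755% and 0.111% of those of distant tumors 1 and 2 and 0.207% and 0.0546% of those of spleens 1 and 2. It made 77.1% and 61.3% of the reads of its V-J pair in treated tumors 1 and 2. The same share was 48.4% and 27.5% in distant tumors 1 and 2, and 32.8% and 11.6% in spleens 1 and 2.

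**Figure D5:**
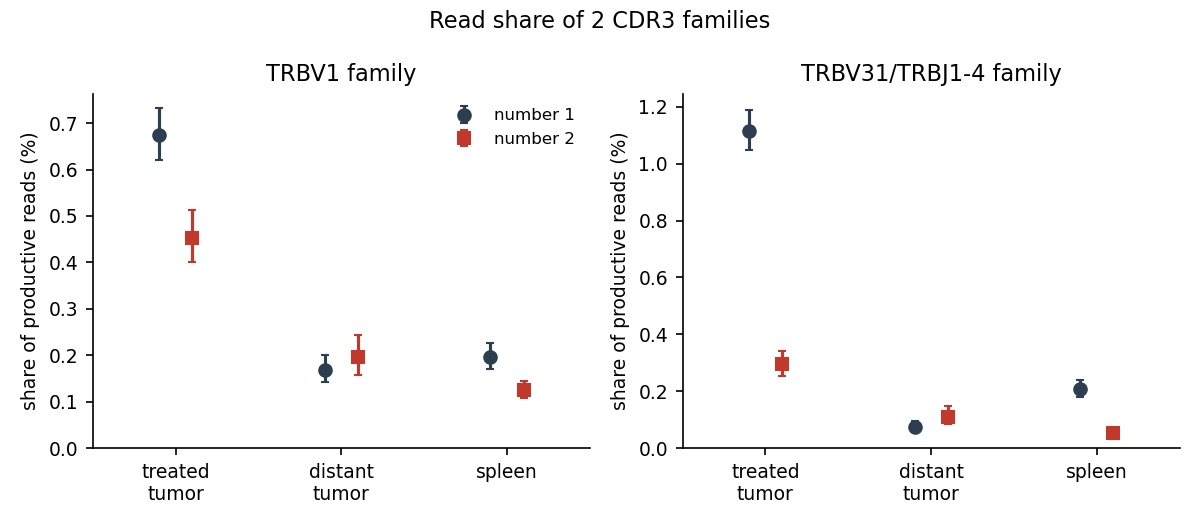
Share of productive reads (%) held by the TRBV1 family and the TRBV31/TRBJ1-4 family in treated tumor, distant tumor and spleen, for numbers 1 (circles) and 2 (squares). Bars are Wilson 95% intervals for counting error. In both families the treated tumor is the highest library of its number, at 0.675% and 0.453% for TRBV1 and 1.12% and 0.294% for TRBV31/TRBJ1-4.

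The most read clonotype of spleen 1, a TRBV14/TRBJ1-6 CDR3 of 15 residues that holds SFHR, differed between numbers in where it was read. Treated tumor 1 held 3 reads of it, distant tumor 1 held 192 and spleen 1 held 236. Treated tumor 2 held 356, distant tumor 2 held 14 and spleen 2 held 11. It was thus the distant tumor that held it in number 1 and the treated tumor in number 2. Its neighbours at 1 residue had few reads, such as a neighbour with 0 reads in treated tumor 1, 4 in distant tumor 1 and 7 in spleen 1. Such neighbours cannot be told apart from reading errors of the abundant clonotype. Without shared clonotypes that lie 1 residue from a tumor clonotype of 10 or more times their reads (19 and 21 of the shared clonotypes), TRBV14/TRBJ1-6 had a log2 fold change of 2.80 and did not pass (edgeR adjusted p = 0.453).

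The 53 clonotypes that were shared in both numbers made up 8.56% of those of number 1 and 6.59% of those of number 2, and 16 of the 53 (30.2%) used TRBV13-2 and 6 (11.3%) TRBV31. Over all shared clonotypes of numbers 1 and 2 these genes had 17.0% and 16.8% for TRBV13-2 and 6.14% and 5.47% for TRBV31, and the difference was not tested. Of the 53, 17 had 2 or more reads in each spleen and were read in all 6 libraries. TRBV13-2/TRBJ2-5 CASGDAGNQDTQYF had 1206 reads in treated tumor 1, 122 in distant tumor 1 and 20 in spleen 1, and 17 in treated tumor 2, 19 in distant tumor 2 and 32 in spleen 2. A TRBV13-2/TRBJ2-2 clonotype of 14 residues had 1365, 13 and 2 reads in number 1 and 269, 7 and 5 in number 2. A TRBV16/TRBJ2-7 clonotype of 15 residues was more even, with 91, 223 and 13 reads in number 1 and 51, 61 and 21 in number 2. Amino acid identity does not show a common ancestor between mice, and nucleotide sequences are not used here.

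At the edge of the selection, 10 shared clonotypes of number 1 and 47 of number 2 had exactly 2 spleen reads and no more than 2 reads in a tumor. Examples just inside are TRBV13-2/TRBJ2-7 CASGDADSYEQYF, with 0 reads in treated tumor 1 and 2 each in distant tumor 1 and spleen 1, and a TRBV13-2/TRBJ2-2 clonotype of 14 residues, with 2 in treated tumor 2, 0 in distant tumor 2 and 2 in spleen 2. Just outside lay the 123 and 182 clonotypes with 1 tumor read, whose median was 3 spleen reads in both numbers, and the 383 and 438 clonotypes with 1 spleen read and 2 or more tumor reads, whose median in the higher tumor was 11 and 5 reads. Of those just inside 40.0% and 21.3% had a read in the other spleen, against 51.2% and 34.1% of those with 1 tumor read and 25.8% and 16.2% of those with 1 spleen read.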

How the data were processed

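Per the file headers, each of the 6 deposited files lists TRBV, TRBJ, CDR3 amino acids and a read count. The authors' counts are whole numbers of reads and are not normalized. Per the labels' protocols, RNA was reverse transcribed, an adaptor was ligated, and TCR-β was amplified with constant region primers and sequenced on a MiSeq. The aligner, germline reference and error handling are not stated in these sources. Reads of the same clonotype were summed and marked sequences left out. The members and lists were chosen with earlier results of these data known.

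For usage, distinct clonotypes per feature were counted in 4 columns, shared and tumor-absent for each spleen. They were tested with edgeR 4.0.16 (R 4.3.3, quasi-likelihood, filterByExpr, scaled by the column total, Benjamini-Hochberg over each kind of feature). DESeq2 1.42.0 was an alternative, run without filterByExpr and with size factors estimated from the counts in place of the column total. Middle residues leave out the first 4 and last 5 positions of CDR3. Words of 3 residues were taken from a wider middle, position 4 to the 5th position from the end. Other comparisons used exact permutation tests in SciPy 1.17.1. Only the usage tests were checked on simulated data, and the permutation tests were not. The simulated columns were independent, without the pairing of the columns of a spleen. Rare features were left out of this check, among them the called words AER, FHR and SFH and the rarer of the called pairs. It therefore says nothing about the calls of these features. Intervals are Wilson 95%, and floors are 3 counts, both for counting error only. Germline ends came from GENCODE M21 transcripts, for 23 of 23 TRBV and 12 of 12 TRBJ. The edgeR p-values rest on the spread between columns of 2 spleens, which may be technical, with dispersion shared over features. The main edgeR test did not pair the columns. Exact permutation p-values set 2 values against 2, of spleens or of tumors, and do not measure how far apart the values lie.

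The replicate numbers pair the columns, because shared and tumor-absent clonotypes of a number come from the same spleen library. The correlation of their deviations was 0.389 for TRBV, -0.264 for TRBJ, -0.00696 for pairs, -0.369 for lengths, -0.255 for residues and 0.0110 for words.

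Named features were those past the adjusted threshold, else the 3 of largest fold change in each direction with the same sign in both numbers. Named clonotypes were drawn from the 10 shared with most spleen reads, the 10 with the highest tumor share, the 3 with the highest spleen share relative to tumor share, 15 present in both numbers by total reads, 3 at the threshold, and the 5 most read of spleen or tumor without the other. The families were chosen after their values were seen.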

Additional observations from a re-analysis of the deposited data

Results flagged for a closer look

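Sequences with a stop or frame mark lie outside the clonotypes described above and cannot give a working receptor chain. In spleen 1, 5 of 667 such sequences with 2 or more reads were also found with 2 or more reads in a tumor of the same number, against 1 of 667 in a tumor of the other number. In spleen 2 it was 8 of 963, against 2 of 963. The shares were 0.750% and 0.831% for the same number, below the 3.53% and 3.30% of unmarked clonotypes, and the difference was not tested. They are named here because they lie outside the main measurement.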

How the results depend on the processing

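Under the alternatives, 37 of 96 counts of called features moved by more than 1.5 times. So did 19 of 58 differences in length, sequence and sharing; all 58 kept the direction of their mean, but with 2 spleens their exact p cannot reach 0.05 and says nothing of stability. Those of CDR3 length, residues outside germline, neighbours and CDR3 held with another gene stand in the report. The same-number minus other-number share was 2.03 percentage points as reported, 0.868 at a minimum of 1 read, 4.13 at 3, 10.2 at 5 and 4.37 at equal depth. Treated minus distant tumors was -322.5 clonotypes as reported, -537.5, -186 and -78.5 at the same minimums, -135 at equal depth, -498 without number 1 and -147 without number 2. The counts as reported were 0 TRBV, 0 TRBJ, 2 pairs, 0 lengths, 0 residues and 3 words. No filter on low counts gave 2 TRBV, 1 pair and 1 word. TMM scaling gave 1 residue (threonine) and 5 words. DESeq2, which also differed in filter and scaling, gave 1 TRBJ and 297 words, and the cause was not tested. With the number as a replicate block, which is the pairing of both columns of a spleen, there were 0 pairs, 2 lengths and 1 word, and no other count of calls changed. A read minimum of 3 gave 1 pair and 1 word, and clonotypes of exactly 2 spleen reads gave 0 pairs and 0 words. Leaving out 1-residue variants gave 1 pair and 1 word. Weighting each clonotype by its spleen reads gave 4 TRBV, 1 TRBJ, 0 pairs and 0 words. Chosen after seeing the data, private clonotypes gave 2 TRBV, 0 pairs and 0 words, and clonotypes found in the treated tumor gave 1 TRBV, 1 pair and 1 word. Leaving out each column in turn gave 0 to 1 TRBV, 0 to 1 pairs, 0 to 2 lengths, 0 to 1 residues and 0 to 1 words, where a lone column is assumed to vary like the other group.

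Fold changes (log2) that changed sign did so below the threshold. Weighting by spleen reads gave 0.410 for TRBV15, -0.117 for TRBJ2-7, -0.232 for isoleucine, 0.0365 for histidine and 0.0280 for valine. Clonotypes of exactly 2 spleen reads gave -0.0674 for TRBJ1-6 and -0.0768 for isoleucine, and private clonotypes -0.0877 for TRBJ2-7 and -0.0494 for isoleucine. A read minimum of 3 gave -0.00427 for asparagine. Clonotypes found in the treated tumor gave -0.0693 for phenylalanine, -0.224 for isoleucine and 0.112 for valine.

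A count of 0 tumor reads allows a share of up to 0.00361% and 0.00535% in treated tumors 1 and 2, and of up to 0.00365% and 0.00709% in distant tumors 1 and 2. With 2 spleens the smallest exact p was 0.33.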
